A study of Mus musculus with 24 samples.

Results

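Potassium, sodium and calcium channel genes were followed in mouse myoblasts that were differentiated with or without silencing of Tead1 and Tead4. The genes were taken by name: every row whose symbol begins with Kcn, Scn and a digit, or Cacn, without Cacna1s and Cacng1. This gave 132 rows with 129 different symbols among the 28109 genes of the table, because Kcnb2, Kcnh8 and Scn8a each have 2 rows. The rows hold the pore-forming subunits of voltage-gated potassium channels (41), potassium channel auxiliary subunits (17), inward rectifiers (14), two-pore potassium channels (14), calcium- or sodium-activated potassium channels (8), sodium channel alpha (11) and beta (4) subunits, and calcium channel alpha1 (9), alpha2delta (4), beta (4) and gamma (6) subunits.

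The libraries were made from messenger RNA of C2C12 cells, a mouse myoblast line of strain C3H by its label, and of primary myoblasts (PMs) labelled C57/B6, which the study isolated from mice aged 3 to 4 weeks. Both were transfected with siRNA against luciferase (siControl) or against both Tead1 and Tead4 (siTead1/4), so that every library comes from transfected cells. Day 0 is undifferentiated cells at 24 hours after transfection, and days 3 and 6 follow the change to medium with 2% horse serum. Each of the 12 groups had 2 libraries, labelled as biological replicates, giving 24 libraries. The p-values rest on a spread between replicates that all groups of a fit share and that draws on other genes. They do not rest on the 2 libraries of a group alone. The labels do not say whether replicates of the PMs came from different mice.

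An action potential in muscle starts with sodium channels, whose alpha subunit forms the pore and whose beta subunits set gating and placement. Potassium channels end it and hold the resting potential, the inward rectifiers near rest and the voltage-gated and calcium-activated ones after a depolarisation. In skeletal muscle the L-type calcium channel, built of alpha1, alpha2delta, beta and gamma subunits, is mainly the voltage sensor that opens the calcium stores. Tead factors bind the MCAT element, a short sequence known from promoters of muscle genes.

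Levels are given as CPM, the usual depth-scaled unit, here counts over the TMM library size, in the order replicate 1 and replicate 2. A gene was called when its edgeR adjusted p was under 0.05 and its log2 fold change (log2 FC) beyond 1 in either direction. A call lost without a replicate was not made when that replicate of the siRNA was left out at every day. Such a fit leaves 1 library in each of those groups, so a loss does not by itself show that a call hangs on 1 library. Totals ran from 25453830 to 52784510 counts in C2C12 libraries and from 32571583 to 51110723 in PM libraries. Tead4 was lower with siTead1/4 in both replicates of all 6 comparisons, for example 64.2 and 59.5 CPM in siControl PMs and 13.2 and 11.1 CPM in siTead1/4 PMs at day 0, and was called in all but C2C12 cells at day 6. Tead1 was also lower without overlap except in C2C12 cells at day 6, where siControl gave 76.0 and 136 CPM and siTead1/4 gave 70.6 and 77.0 CPM, and was called in PMs at days 0 and 3. Myogenic marker genes summed to 983 to 1122 CPM in siControl C2C12 cells at day 0 and to 10840 to 11510 CPM in siControl PMs, with Myog at 9.68 and 2.91 CPM in the former and at 960 and 1039 CPM in the latter. Myog was thus already high in the PM libraries labelled day 0. In bulk RNA, fewer cells of a kind and less RNA per cell cannot be told apart.

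Replicates of PMs stood apart in 3 potassium channel genes of nerve and in some markers of other cells, all noticed after the values were seen. Kcna1, the axonal delayed rectifier, was at 0.742 to 3.46 CPM in the 6 PM libraries of replicate 1 and at 0.0282 to 0.372 CPM in those of replicate 2. Its relative Kcna6 was at 0.343 to 1.20 CPM in replicate 1 and at 0.0310 to 0.0997 CPM in replicate 2, while Kcna2 was at 0.0636 to 0.324 CPM in replicate 1 and at 0.0253 CPM or below in replicate 2. The Schwann cell genes Sox10 and Cdh19 moved with them, Sox10 at 1.10 to 4.01 CPM against 0.0506 to 0.359 CPM, and Cdh19 at 0.975 to 4.56 CPM against 0.0652 to 0.186 CPM. The list of 10 Schwann cell markers as a whole, which summed to 68.8 to 474 CPM in C2C12 cells, came to 123 to 394 CPM in replicate 1 and to 113 to 376 CPM in replicate 2 of the PMs. The 8 endothelial markers summed to 17.6 to 31.4 CPM in replicate 1 and to 9.41 to 15.7 CPM in replicate 2. The 12 neuron markers summed to 34.6 to 65.6 CPM in replicate 1 and to 24.0 to 65.1 CPM in replicate 2, ranges that overlap as those of the Schwann cell list do. Whether such cells were present, and their part in the channel values, was not tested. Kcnc4 went the other way, from 0.0858 to 4.59 CPM in replicate 1 and from 0.395 to 15.2 CPM in replicate 2, higher in replicate 2 at each day and with each siRNA.

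Of the 132 rows, 62 had enough counts to be tested in C2C12 cells and 91 in PMs, 58 of them in both, and 20 had at most 3 counts in every library. The untested rows include Kcna5, Kcnq3 and Kcnj5, which were at the floor of 3 counts throughout. Levels are compared between genes only per kilobase of the deposited gene length. On that scale calcium channel auxiliary subunits were among the highest in siControl cells of either type. Averaged over the 6 siControl libraries, Cacnb1, the beta subunit of the muscle L-type channel, had 43.4 CPM per kb in C2C12 cells and 58.2 CPM per kb in PMs. Cacna2d1, its alpha2delta subunit, had 36.9 and 43.8 CPM per kb. Cacnb3 followed Cacnb1 in C2C12 cells with 40.7 CPM per kb. Among the others of the 10 highest were, in C2C12 cells, Kcnn4 (17.0 CPM per kb), Scn4a (14.1), Kcnf1 (5.59), Kcnn3 (5.16) and Kcnj12 (3.86), and in PMs Cacng6 (48.0), Scn4a (20.5), Kcnf1 (14.6), Kcnn3 (12.2) and Kcnj11 (10.7). These averages hide changes between days, which follow.

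The comparison of siControl cells at day 3 with day 0 asks which channel genes accompany differentiation. In C2C12 cells 27 of the 62 tested members were higher at day 3 (43.5%) and 8 were lower (12.9%), whereas of all 15303 tested genes 16.0% were called higher and 12.7% lower. In PMs 42 of 91 members were higher (46.2%) and 11 lower (12.1%), against 17.5% higher and 14.9% lower of all 16144 tested genes. Of the members called higher, 10 in C2C12 cells and 5 in PMs were at or under 3 counts in each library of day 0, and could only have passed the filter through later samples. The median log2 FC of tested members was 1.19 in C2C12 cells and 1.30 in PMs, and that of all tested genes -0.014 and 0.015.

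**Figure D1:**
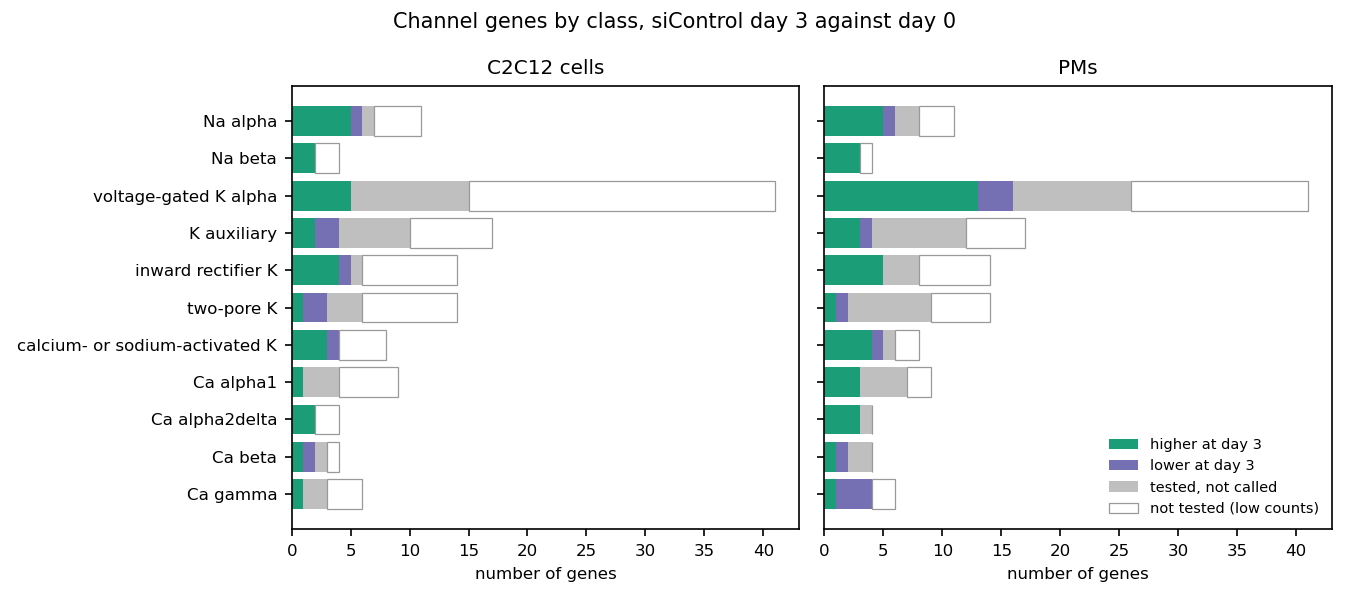
Number of channel genes per class (horizontal axis) in siControl cells at day 3 against day 0, for C2C12 cells and PMs: called higher, called lower, tested without a call, and not tested for low counts. Among the 41 rows of voltage-gated potassium channels, 5 were called higher in C2C12 cells and 13 in PMs, and 15 and 26 were tested.

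Sodium channels rose in most tested members. Of 7 tested alpha subunits in C2C12 cells 5 were higher and 1 lower, and of 8 in PMs 5 were higher and 1 lower. All tested beta subunits were higher, 2 in C2C12 cells and 3 in PMs. Scn4a, the pore of the adult skeletal muscle channel Nav1.4 (chromosome 11, 106179906 to 106214602 in mm9), had 0.141 and 0.213 CPM in C2C12 cells at day 0 and 124 and 168 CPM at day 3. In PMs it had 36.8 and 36.6 CPM at day 0 and 240 and 213 CPM at day 3. The replicates do not overlap in either cell type, and Scn4a had the largest log2 FC of the members called in C2C12 cells, 9.58 (SE 0.46, adjusted p = 1.55e-06), against 2.57 (SE 0.17, adjusted p = 8.23e-07) in PMs.

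Of the beta subunits, Scn4b was absent or at 1 count in C2C12 libraries and in siControl PMs rose from 0.0212 and 0 CPM to 0.730 and 2.12 CPM at day 3 and to 7.60 and 4.76 CPM at day 6. Since both day 0 libraries were at the floor, the day 6 value is at least 83.5-fold higher. Scn3b rose in C2C12 cells from 0 and 0.0178 CPM to 1.82 and 2.04 CPM, at least 28.0-fold, and in PMs from 4.09 and 4.28 CPM to 32.6 and 30.3 CPM (log2 FC 2.85, SE 0.19).

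Scn10a, best known from sensory neurons, was also higher at day 3, with 6.58 and 4.72 CPM in C2C12 cells and 10.8 and 10.0 CPM in PMs against 0.648 CPM or less at day 0. The alpha subunit that fell in both cell types was Scn9a, a channel of nociceptive neurons. It was at 17.7 and 16.0 CPM in PMs at day 0 and at 0.112 and 0.101 CPM at day 3 (log2 FC -7.32, SE 0.65, adjusted p = 5.54e-06), the largest fall of a member called in PMs at that day. In C2C12 cells it was at 0.338 and 0.764 CPM at day 0 and at 0 and 0.0405 CPM at day 3, at least 8.38-fold lower, a call that was lost without either siControl replicate. Scn7a, a sodium-sensing relative of the alpha subunits, rose from 0.0845 and 0.444 CPM to 5.76 and 13.2 CPM in C2C12 cells, and from 0.233 and 0.197 CPM to 1.54 and 7.33 CPM in PMs. The call in PMs was lost without replicate 2.

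**Figure D2:**
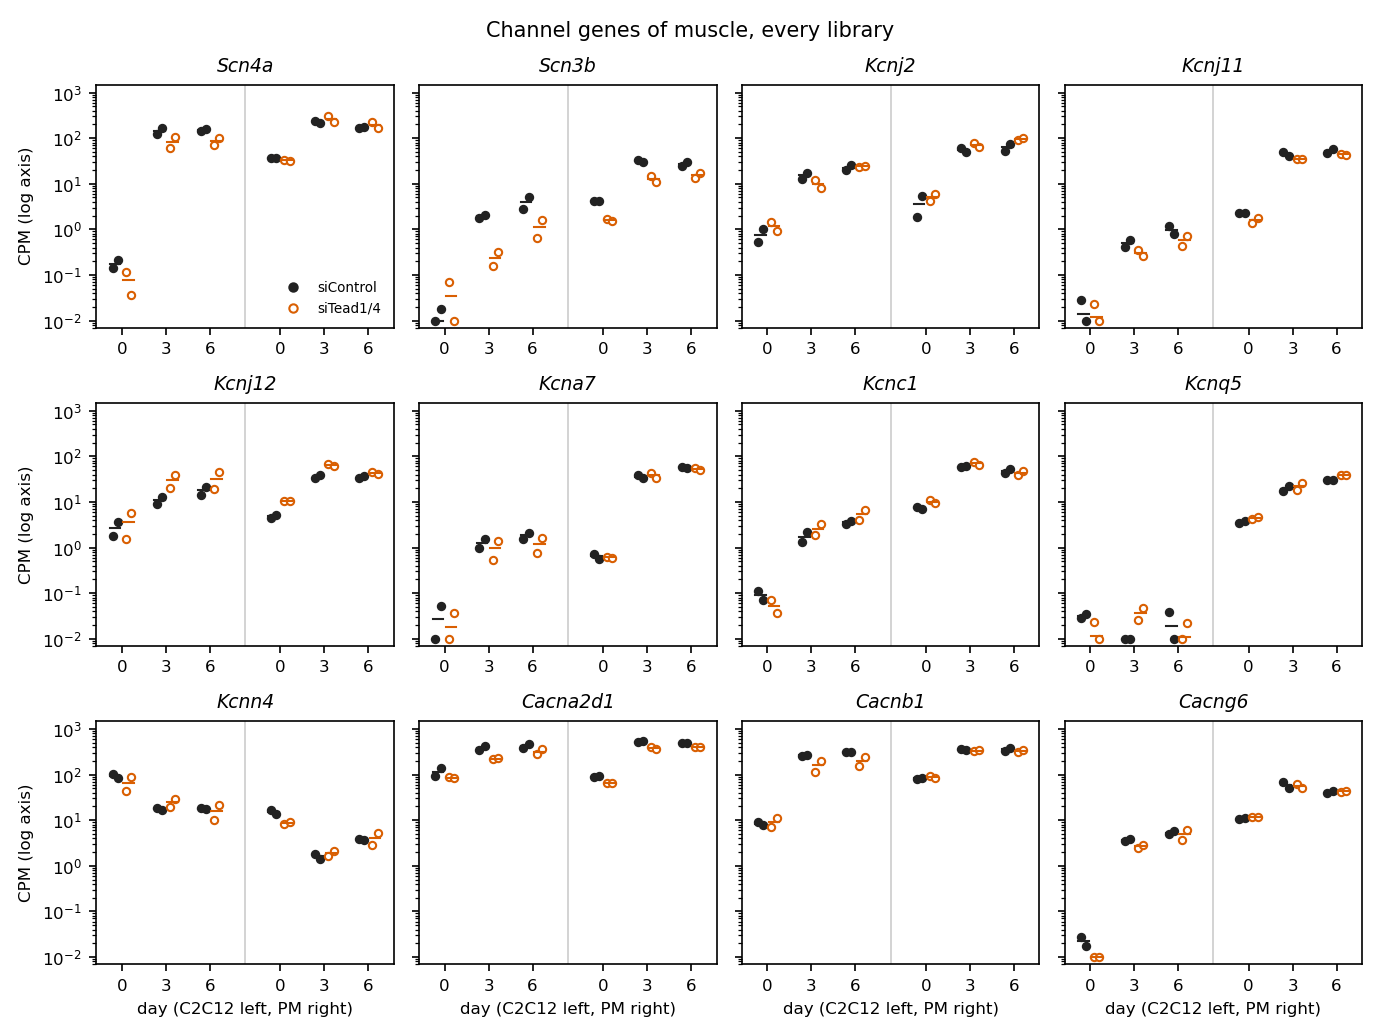
Level of 12 channel genes in CPM (vertical log axis) by day for C2C12 cells (left of each panel) and PMs (right), with siControl as filled and siTead1/4 as open points. Each point is 1 library, dashes mark the mean of 2, and values under 0.01 CPM are drawn at 0.01. Scn4a in C2C12 cells goes from at most 0.213 CPM at day 0 to at least 124 CPM in siControl cells at day 3, while Kcnq5 stays at 0.0463 CPM or below in all C2C12 libraries.

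Inward rectifiers, which hold the resting potential of the muscle fibre, rose in both cell types. Of the 6 tested in C2C12 cells 4 were higher and 1 was lower at day 3, and of the 8 tested in PMs 5 were higher. Kcnj2 (Kir2.1) rose from 0.535 and 0.995 CPM to 13.0 and 17.6 CPM in C2C12 cells (log2 FC 4.24, SE 0.38, adjusted p = 2.38e-05). In PMs it rose from 1.84 and 5.33 CPM to 61.8 and 48.5 CPM (log2 FC 3.92, SE 0.40, adjusted p = 1.41e-05). Kir2 channels conduct near the resting potential. Kcnj12 (Kir2.2) rose from 1.83 and 3.63 CPM to 9.18 and 12.9 CPM in C2C12 cells (log2 FC 1.97, SE 0.63), a call lost without either siControl replicate, and from 4.37 and 5.30 CPM to 33.1 and 38.2 CPM in PMs (log2 FC 2.83, SE 0.14). Kcnj11, the pore of the ATP-sensitive channel, rose in PMs from 2.25 and 2.25 CPM to 48.5 and 39.8 CPM (log2 FC 4.24, SE 0.17, adjusted p = 6.83e-08). In C2C12 cells the same gene reached 0.401 and 0.587 CPM from 0.0282 and 0 CPM, at least 7.17-fold, which was lost without siControl replicate 2. Kcnj8, the vascular pore of that channel, had at most 0.0964 CPM in any library. In C2C12 cells Kcnj14 was lower, at 0.450 and 0.249 CPM at day 0 and at 0 and 0.0202 CPM at day 3, at least 5.32-fold lower, which was lost without siControl replicate 1.

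Voltage-gated potassium channels were called higher more often than lower, 5 and 0 of the 15 tested in C2C12 cells and 13 and 3 of the 26 tested in PMs. Kcna7, a Shaker-type channel of skeletal muscle and heart, rose in PMs from 0.721 and 0.564 CPM to 38.9 and 33.0 CPM (log2 FC 5.73, SE 0.19, adjusted p = 4e-08). In C2C12 cells it rose from 0 and 0.0533 CPM to 0.991 and 1.54 CPM, at least 18.4-fold. Kcnc1, a fast delayed rectifier, rose from 0.113 and 0.0711 CPM to 1.32 and 2.17 CPM in C2C12 cells and from 7.61 and 6.90 CPM to 57.2 and 60.8 CPM in PMs. Kcnh1 (EAG1), whose activation precedes fusion in human myoblasts, was called higher in PMs at day 3, at 0.701 and 1.06 CPM from 0.148 and 0.225 CPM. In C2C12 cells it was called at day 6 and not at day 3, at 4.32 and 2.87 CPM from 0.704 and 0.995 CPM, and that call was lost without either siControl replicate.

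Kcnq1, best known from heart, rose from 0.0848 and 0.0845 CPM to 1.01 and 0.910 CPM in PMs (log2 FC 3.40, SE 0.54) and at least 5.73-fold in C2C12 cells, from 0 and 0.0355 CPM to 0.283 and 0.506 CPM. Kcnh3, a brain ether-a-go-go channel, was at 0 in both PM libraries at day 0 and at 0.0561 and 0.177 CPM at day 3, at least 1.57-fold higher, a call lost without siControl replicate 2.

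The 3 voltage-gated members called lower at day 3 in PMs were Kcnf1, Kcnh5 and Kcna3. Kcnf1, a silent subunit of voltage-gated channels, fell in PMs from 149 and 201 CPM to 11.6 and 27.6 CPM (log2 FC -3.21, SE 0.43, adjusted p = 0.000101). In C2C12 cells Kcnf1 was called lower at day 6, at 12.1 and 19.5 CPM from 28.5 and 58.8 CPM (log2 FC -1.51, SE 0.42, adjusted p = 0.0156), a call lost without either siControl replicate. Kcnh5 (EAG2) fell in PMs from 3.65 and 2.37 CPM to 0.0842 and 0.126 CPM (log2 FC -4.84, SE 0.45, adjusted p = 7.4e-06). Kcna3, a channel of lymphocytes and proliferating cells, was at 0.382 and 0.423 CPM in PMs at day 0 and at 0.0561 and 0.0506 CPM at day 3, at least 5.03-fold lower, which was lost without either siControl replicate. Kcns3, another silent subunit, was called lower in PMs at day 6, from 0.403 and 0.113 CPM to 0.0647 and 0 CPM, and not by DESeq2 or without either siControl replicate.

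Calcium- or sodium-activated channels were called higher in 3 of 4 tested in C2C12 cells and in 4 of 6 in PMs, with 1 lower in each. Kcnn4, the intermediate-conductance calcium-activated channel, was lower in both cell types, from 101 and 86.0 CPM to 18.6 and 16.8 CPM in C2C12 cells (log2 FC -2.44, SE 0.41, adjusted p = 0.00126), a call lost without either siControl replicate. In PMs it went from 16.4 and 13.5 CPM to 1.85 and 1.44 CPM (log2 FC -3.24, SE 0.30, adjusted p = 6.87e-06). Kcnn3 (SK3), known from immature and denervated muscle, rose from 0.901 and 0.249 CPM to 23.8 and 28.4 CPM in C2C12 cells (log2 FC 5.53, SE 0.74, adjusted p = 0.000299) and from 14.9 and 10.8 CPM to 56.6 and 56.9 CPM in PMs (log2 FC 2.08, SE 0.20, adjusted p = 1.06e-05). Kcnn2, its relative, had at most 0.279 CPM in any library. Kcnma1, the large-conductance BK channel, rose in PMs from 1.29 and 0.958 CPM to 7.55 and 9.35 CPM (log2 FC 2.84, SE 0.27). In C2C12 cells Kcnma1 was too low to be tested, at 0.201 CPM or less in siControl libraries.

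Two-pore channels, which carry background potassium current, had 1 higher and 2 lower calls of 6 tested in C2C12 cells. Of all genes tested there, 16.0% were called higher and 12.7% lower. In PMs 1 was higher and 1 lower of 9, against 17.5% and 14.9% of all tested genes. These counts are too small to set the class apart. Kcnk2 (TREK-1) was lower at day 3 in both cell types, at 7.91 and 13.4 CPM and then 1.89 and 2.37 CPM in C2C12 cells, and at 4.66 and 5.49 CPM and then 2.08 and 2.38 CPM in PMs. The values of the days do not overlap in either cell type. Kcnk12, at 1.46 and 2.19 CPM, fell to 0.330 and 0.405 CPM in C2C12 cells, and this call and that of Kcnk2 were lost there without either siControl replicate. Kcnk13 (THIK-1) rose in C2C12 cells from 0.0563 and 0 CPM to 4.98 and 3.52 CPM, at least 61.7-fold, and in PMs was at 17.3 and 26.1 CPM at day 0 and at 32.7 and 35.8 CPM at day 3 without a call. Kcnk1 (TWIK-1) was called higher in PMs at day 6 through replicate 1, at 1.04 and 0.0978 CPM from 0.0212 and 0 CPM, and was lost without that replicate.

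Potassium channel auxiliary subunits were called higher in 2 and lower in 2 of 10 in C2C12 cells, and higher in 3 and lower in 1 of 12 in PMs. Kcnmb1, the beta subunit of BK, fell in C2C12 cells from 0.310 and 0.373 CPM to 0.0944 and 0.162 CPM, and was not called by DESeq2 or without either siControl replicate. Kcnab3, a beta subunit of Shaker channels, fell there from 8.30 and 8.16 CPM to 3.87 and 4.01 CPM (log2 FC -1.10, SE 0.34), a call also lost without either replicate.

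Auxiliary subunits of calcium channels moved in both directions at day 3. Alpha2delta subunits were called higher in 2 of 2 tested in C2C12 cells and 3 of 4 in PMs. Of the beta subunits, 1 was higher and 1 lower among 3 tested in C2C12 cells and among 4 in PMs. Of the gamma subunits, 1 of 3 was higher in C2C12 cells, and 1 was higher and 3 were lower of 4 in PMs. Cacna2d1 rose from 92.7 and 139 CPM to 353 and 418 CPM in C2C12 cells (log2 FC 1.70, SE 0.24, adjusted p = 0.000393) and from 90.5 and 90.8 CPM to 518 and 532 CPM in PMs (log2 FC 2.48, SE 0.09, adjusted p = 6.23e-08). Cacnb1 rose from 9.04 and 7.73 CPM to 261 and 266 CPM in C2C12 cells (log2 FC 4.93, SE 0.37, adjusted p = 9.35e-06) and from 81.3 and 84.4 CPM to 359 and 345 CPM in PMs (log2 FC 2.03, SE 0.11, adjusted p = 2.81e-07). Cacna2d2, an alpha2delta subunit of brain and heart, rose at least 27.5-fold in C2C12 cells, from 0.0282 and 0 CPM to 1.58 and 2.21 CPM, and in PMs from 0.127 and 0.310 CPM to 1.85 and 2.65 CPM (log2 FC 3.36, SE 0.72). Cacna2d4, of retina, was called in PMs at day 6, at 0.324 and 0.554 CPM from 0 and 0.0282 CPM, at least 5.93-fold, and was lost without either siControl replicate. Cacng6, a gamma subunit close to the muscle one, rose at least 52.6-fold in C2C12 cells, from 0.0282 and 0.0178 CPM to 3.42 and 3.83 CPM, and in PMs from 10.6 and 11.0 CPM to 69.1 and 50.5 CPM (log2 FC 2.42, SE 0.16). By contrast Cacnb2, the beta subunit of the heart, fell from 3.35 and 5.49 CPM to 0.708 and 1.42 CPM in C2C12 cells and from 0.763 and 0.902 CPM to 0.112 and 0.0506 CPM in PMs, the former lost without either siControl replicate. The other gamma subunits called in PMs also fell, Cacng4 from 4.18 and 3.95 CPM to 0.758 and 1.01 CPM, Cacng7 from 14.6 and 17.1 CPM to 5.78 and 5.43 CPM, and Cacng8, not called by DESeq2 or without siControl replicate 2, from 0.276 and 0.310 CPM to 0.0842 and 0.0253 CPM.

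Of the pores, 1 of 4 tested was higher in C2C12 cells and 3 of 7 in PMs. Cacna1b (Cav2.2), a channel of nerve terminals, rose from 1.24 and 1.87 CPM to 12.7 and 16.1 CPM in C2C12 cells (log2 FC 3.16, SE 0.33, adjusted p = 5.96e-05). In PMs it rose from 0.763 and 1.41 CPM to 2.55 and 2.98 CPM (log2 FC 1.31, SE 0.33, adjusted p = 0.00562). The T-type pores Cacna1g and Cacna1i rose in PMs, from 0.191 and 0.141 CPM to 1.04 and 1.19 CPM and from 0.297 and 0.197 CPM to 2.41 and 2.22 CPM. Cacna1h, the T-type pore linked to myoblast fusion in human cells, stayed between 2.93 and 6.55 CPM in the 6 siControl PM libraries. Cacna1c, the cardiac L-type pore, was at 1.01 to 4.11 CPM in siControl PMs and at 0.0366 CPM or less in all C2C12 libraries.

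A list of 26 channel genes of muscle, drawn up with earlier results of these data known, gave these counts. In C2C12 cells 18 were tested at day 3, of which 14 were higher and Kcnn4 was lower, with a median log2 FC of 4.23. Of all genes tested there, 16.0% were called higher and 12.7% lower. In PMs 24 were tested, of which 16 were higher and Kcnn4 was lower, with a median of 2.39, against 17.5% higher and 14.9% lower of all tested genes. Kcne3, whose product pairs with muscle potassium channels, was at 0.170 and 0.113 CPM in siControl PMs at day 0 and at 0 in both libraries at day 6, a call lost without either siControl replicate. Of 29 channel partners, among them Cacna1s, the ryanodine receptors and regulators of the L-type channel, 17 of 23 tested were higher at day 3 in C2C12 cells and 14 of 25 in PMs. The shares of all tested genes are those just given, and this list too was drawn up with earlier results known. One was lower in each, Hcn2 in C2C12 cells (log2 FC -1.61) and Rem2, which inhibits calcium channels, in PMs (log2 FC -3.74), both named after their values were seen.

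At day 6 against day 0, 29 members were higher and 9 lower in C2C12 cells, where 17.1% and 14.0% of all tested genes were called. In PMs 46 members were higher and 10 lower, where 20.2% and 15.3% of all tested genes were called. Day 6 values of Scn4a in C2C12 cells, 143 and 159 CPM, stood 9.62 above day 0 on the log2 scale (SE 0.46). Between days 3 and 6 edgeR called no member in C2C12 cells, where 0% of all tested genes were called and 3 members had an unadjusted p under 0.05, and DESeq2 called 0. In PMs 9 members were higher at day 6 than at day 3 and none lower, while 2.22% of all tested genes were called higher and 0.582% lower, and 31 members had an unadjusted p under 0.05. DESeq2 called 8 higher and 1 lower.

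The members that rose late in PMs were mostly low at day 3. Kcnc4 (Kv3.4), a fast muscle potassium channel, went from 0.140 and 1.24 CPM to 4.59 and 13.9 CPM (log2 FC 3.71, SE 0.95, adjusted p = 0.0474). Kcnj15, an inward rectifier, went from 2.61 and 0.506 CPM to 16.1 and 12.5 CPM (log2 FC 3.20, SE 0.59, adjusted p = 0.0139). Scn4b, described above, Scn2a1, Kcnd3 and Cacna1g rose by 1.88 to 2.45 on the log2 scale, and Kcnk5, Kcnn4 and Kcnk2 by 1.02 to 1.29. All 9 calls were lost when either siControl replicate was left out, and 1 remained when only the 4 libraries compared were fitted.

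The members called in one cell type were compared with those called in the other among the 58 tested in both. At day 3, 22 were higher in both, which is 81.5% of all 27 called higher in C2C12 cells and 52.4% of all 42 in PMs. Another 4, Cacnb2, Kcnk2, Kcnn4 and Scn9a, were lower in both, 50% of all 8 called lower in C2C12 cells and 36.4% of all 11 in PMs. The members called in PMs, in either direction, include some not tested in C2C12 cells, which could not be shared. The PM shares are therefore lower than they would be among the 58. The same overlap was not computed over all genes. Kcne4, an auxiliary subunit that inhibits potassium channels, was the one member called in opposite directions at day 3. It went from 0.0282 and 0 CPM to 0.236 and 0.223 CPM in C2C12 cells, and from 0.360 and 0.254 CPM to 0.168 and 0.0253 CPM in PMs. The PM values are 17 and 9 counts at day 0 and 6 and 1 at day 3. At day 6 it had 11 and 11 counts in siControl PMs, without a call against day 0. The one member called in opposite directions at day 6 was Kcnk12, lower in C2C12 cells and higher in PMs.

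A test of the difference itself, the day 3 against day 0 effect in PMs minus that in C2C12 cells over all 24 libraries, called 15 of 96 members. The effect was more positive in PMs for 4 (4.17%) and more negative for 11 (11.5%), while 3.79% and 7.44% of all 16926 tested genes were called in these directions. Of the 15, 5 were at or under 3 counts in both C2C12 libraries of day 0, so their differences are given as bounds or not at all. For Scn4a the difference was -6.98 on the log2 scale (SE 0.45, adjusted p = 1.16e-07), with levels farther apart between the cell types at day 0 (0.141 and 0.213 against 36.8 and 36.6 CPM) than at day 3 (124 and 168 against 240 and 213 CPM). Kcnn3 (-3.46), Cacnb1 (-2.89) and Cacna1b (-1.84) also rose in both cell types and by more in C2C12 cells. So did Cacng6 (at most -3.30) and Scn3b (at most -1.96), whose rises in C2C12 cells started at the floor. For Cacna1b the day 0 levels overlapped between the cell types, and those of day 3 did not. Without siControl replicate 1 or 2 in turn, 5 to 8 members were called, Scn4a and Cacng6 among them each time. Cacna1b, Scn3b and Kcnk12 were lost without either, Kcnf1 without replicate 1, and Kcnn3, Cacnb1, Kcnk13 and Kcne4 without replicate 2.

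Kcnq5, a channel of the M-current family with 0.0463 CPM or less in C2C12 cells, rose in PMs from 3.52 and 3.92 CPM to 17.2 and 22.3 CPM and reached 30.1 and 30.3 CPM at day 6. It was at or under 3 counts in C2C12 siControl cells at both days, so a change there could not be measured and no difference is given. For Kcnk12 the effect in PMs minus that in C2C12 cells was 3.65 and for Kcnf1 -2.09. For Kcnk13 and Kcne4, at the floor in C2C12 cells at day 0, it was at most -5.34 and -3.48.

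**Figure D3:**
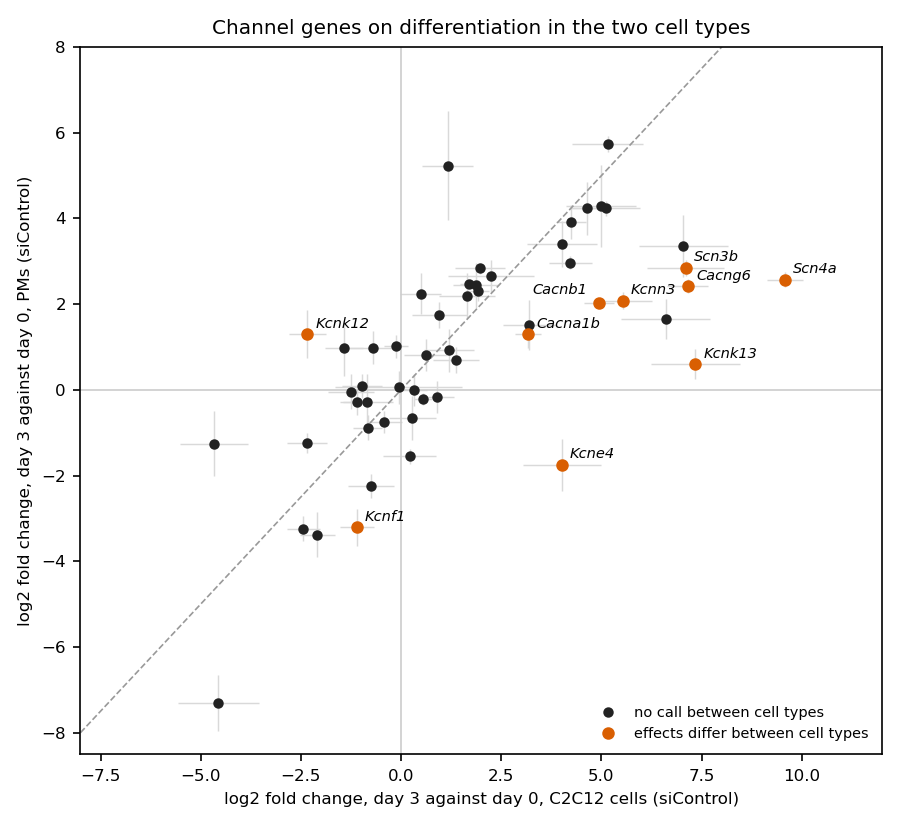
Log2 fold change at day 3 against day 0 in siControl C2C12 cells (horizontal) and PMs (vertical) for 53 of the 58 channel genes tested in both, with bars of 1 SE and the line of equal change dashed. The 10 named orange points are those whose effects differ between the cell types in the test over 24 libraries, with Scn4a farthest right and Kcne4 and Kcnf1 below 0 in PMs. The horizontal values of Kcnk13, Kcne4, Cacng6 and Scn3b are fitted from day 0 libraries at or under 3 counts.

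Silencing of Tead1 and Tead4 was compared with siControl at each day to ask which channel genes depend on these factors. In PMs at day 0, 4 of 91 tested members were higher (4.4%) and 3 lower (3.3%), against 1.50% and 1.10% of all tested genes. At day 3, 6 were higher (6.59%) and 4 lower (4.4%), against 2.10% and 1.20%. At day 6, 1 was higher and 1 lower, against 0.465% and 0.279%. In C2C12 cells day 3 gave 1 lower member, Cacna1b, of 62 tested, against 0.190% higher and 1.08% lower of all tested genes. Days 0 and 6 gave none with edgeR, with 0.137% and 0.301%, and 0.0131% and 0.0327%, of all tested genes called higher and lower. At an unadjusted p under 0.05 there were 8 members at day 0 and 8 at day 6, and DESeq2 called 3 and 2. Myogenic markers summed to 17680 and 20030 CPM in siControl and to 6887 and 9537 CPM in siTead1/4 C2C12 cells at day 3, and to 39220 and 36980 CPM against 34930 and 33340 CPM in PMs. The part of that shift in the channel values was not tested.

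The promoters of the members called with siTead1/4 were searched for the core of the MCAT element, CATTCC, on either strand. Windows of 250 bases upstream of a RefSeq transcription start (GRCm38.p6) were given for 11 of the 16 genes and held this core in 3 (27.3%), while 12.6% of all 32851 windows held it. Cacna1h, Scn3a and Scn3b were among those with no window. The stretches around the 3 matches are shown because they hold this core, written along the strand of the gene with the core or its reverse complement in capitals. The full element given in the paper is the core followed by A or T. Here the core is followed by G in Kcne1l and Kcnh5 and, on the other strand, by C in Scn7a. None of the 3 stretches thus holds the full element at its match. They lie on the minus strand at chrX:142306336-142306435 (Kcne1l), chr12:75177466-75177565 (Kcnh5) and chr2:66785046-66785145 (Scn7a), with the match beginning 190, 186 and 188 bases before the start.
Kcne1l: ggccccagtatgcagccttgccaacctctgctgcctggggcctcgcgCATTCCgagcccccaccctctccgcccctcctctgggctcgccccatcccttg
Kcnh5: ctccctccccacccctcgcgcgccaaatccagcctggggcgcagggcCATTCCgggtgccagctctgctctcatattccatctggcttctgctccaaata
Scn7a: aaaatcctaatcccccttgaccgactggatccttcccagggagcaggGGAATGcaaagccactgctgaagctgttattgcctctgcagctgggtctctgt
Kcne1l was lower, and Kcnh5 and Scn7a were higher with siTead1/4, so the genes with a match moved in both directions. A match is a description of the letters and not of binding.

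Of the 3 T-type calcium channel pores tested in PMs, Cacna1h and Cacna1i were called higher with siTead1/4 at day 3 and Cacna1g was not (1.11 against 1.51 CPM, log2 FC 0.43, SE 0.30). Cacna1h (Cav3.2; chromosome 17, 25511230 to 25570728 in mm9) had 6.14 and 6.55 CPM in siControl PMs at day 3 and 94.2 and 74.2 CPM with siTead1/4, groups that lie far apart. The log2 FC was 3.72 (SE 0.40, adjusted p = 0.000829), and the call held under every alternative that was run. At day 6 Cacna1h had 5.60 and 2.93 CPM against 38.0 and 18.1 CPM (log2 FC 2.72, SE 0.40, adjusted p = 0.0118), a call lost without either siControl replicate, without siTead1/4 replicate 1 or with only the 4 libraries compared. At day 0 the values overlapped, 6.19 and 5.49 CPM against 9.94 and 5.73 CPM. In C2C12 cells at day 6 it had 0.0193 and 0.0334 CPM in siControl and 0.634 and 0.665 CPM in siTead1/4 libraries, at least 8.22-fold higher and not called (adjusted p = 0.191). Its interval overlaps Tpsg1, which was at 0 in all but 1 library. Cacna1i (Cav3.3) was also higher in PMs at day 3, 5.56 and 5.56 CPM against 2.41 and 2.22 CPM (log2 FC 1.25, SE 0.26, adjusted p = 0.0162), and this call was lost without any one of the replicates.

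Cacna1b was the single member called with siTead1/4 in C2C12 cells. It had 12.7 and 16.1 CPM in siControl and 3.47 and 2.55 CPM in siTead1/4 cells at day 3 (log2 FC -2.28, SE 0.31, adjusted p = 0.0135), the gene having risen from 1.24 and 1.87 CPM at day 0. The call was lost without either siControl replicate and when only the 4 libraries were fitted. In PMs at day 3 the values were 2.55 and 2.98 CPM against 1.61 and 2.19 CPM, without a call (adjusted p = 0.335), and the difference between the cell types missed the threshold with edgeR (1.72, SE 0.44, adjusted p = 0.0683).

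The sodium channel genes Scn3b and Scn3a were lower with siTead1/4 in PMs. The beta subunit Scn3b was lower at day 0, 4.09 and 4.28 CPM against 1.67 and 1.54 CPM (log2 FC -1.39, SE 0.20, adjusted p = 0.00372), lost without either siControl replicate. At day 3 it had 32.6 and 30.3 CPM against 14.5 and 11.2 CPM (log2 FC -1.30, SE 0.17, adjusted p = 0.00201), lost without siControl replicate 1, and at day 6, with 24.6 and 29.6 CPM against 13.5 and 17.6 CPM, it missed the threshold (adjusted p = 0.0575). In C2C12 cells at day 3 its values were 1.82 and 2.04 CPM against 0.159 and 0.324 CPM, a log2 FC of -3.00 (SE 0.64) with an adjusted p of 0.055. Scn3a, an alpha subunit of the embryonic brain, was lower at day 3, 8.22 and 15.1 CPM against 2.58 and 2.62 CPM (log2 FC -2.18, SE 0.48, adjusted p = 0.023). This call was lost without siControl replicate 2 or either siTead1/4 replicate.

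Scn7a was higher at day 0, 0.233 and 0.197 CPM in siControl and 8.18 and 6.88 CPM in siTead1/4 PMs (log2 FC 5.09, SE 0.95, adjusted p = 0.0118). It is the largest log2 FC of a member called in any siTead1/4 comparison, although the adjusted p rose above 0.05 without either siControl replicate. By day 3 its siControl level had risen to 1.54 and 7.33 CPM and the groups overlapped, with 3.54 and 16.6 CPM in siTead1/4 cells. In C2C12 cells at day 0, Scn7a had 0.0845 and 0.444 CPM against 6.88 and 2.27 CPM, without overlap and without a call (log2 FC 3.99, SE 0.86, adjusted p = 0.085).

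Potassium channel genes were called in both directions. Kcnma1 was lower in PMs at day 3, 7.55 and 9.35 CPM against 3.95 and 4.31 CPM (log2 FC -1.04, SE 0.25, adjusted p = 0.03), a call lost without any one replicate. Kcne1l, an auxiliary subunit of the KCNE family, was lower at day 6, 5.86 and 5.05 CPM against 0.404 and 1.21 CPM (log2 FC -2.76, SE 0.51, adjusted p = 0.0349). This call was also lost without any one replicate, and with only the 4 libraries compared. At day 3 its values were 1.46 and 3.56 CPM against 0.837 and 0.772 CPM.

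Of the 8 inward rectifiers tested in PMs, Kcnj12 and Kcnj3 were called higher at day 0 and Kcnj3 at day 3, while the median log2 FC of the 8 was -0.115 and -0.037 (all tested genes -0.007 and 0.008). Kcnj12 had 4.37 and 5.30 CPM in siControl and 10.3 and 10.7 CPM in siTead1/4 PMs at day 0 (log2 FC 1.12, SE 0.13, adjusted p = 0.00163), a call lost without siControl replicate 1, and 33.1 and 38.2 CPM against 68.7 and 61.8 CPM at day 3, where the log2 FC of 0.86 (SE 0.12, adjusted p = 0.00296) was below the fold threshold. In C2C12 cells at day 3 it had 9.18 and 12.9 CPM against 19.9 and 39.9 CPM, without a call. Kcnj3, the pore of a G protein-gated channel, had 0.0848 and 0 CPM against 0.423 and 0.514 CPM at day 0 (log2 FC 3.21, SE 0.73, adjusted p = 0.0253) and 0.196 and 0.430 CPM against 1.50 and 1.97 CPM at day 3 (log2 FC 2.43, SE 0.51, adjusted p = 0.018). The day 0 call was lost without any one replicate and the day 3 call without any but siControl replicate 2. The gene overlaps Gm17595, which moved with it, from 0.112 and 0.0506 CPM to 0.687 and 0.698 CPM at day 3.

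Both partners of the transient outward current, the pore Kcnd3 and its auxiliary subunit Kcnip2, were higher with siTead1/4 in PMs at day 3. Kcnip2 had 0.0842 and 0.278 CPM in siControl and 2.58 and 1.97 CPM in siTead1/4 cells (log2 FC 3.59, SE 0.48, adjusted p = 0.00201), and this call held under every alternative. Kcnd3 had 0.0561 and 0.0506 CPM, at or under 3 counts, against 0.386 and 0.274 CPM, at least 4.13-fold higher. The Kcnd3 call was lost without any one replicate or with only the 4 libraries compared. The ether-a-go-go channels Kcnh6 at day 0 (2.42 and 2.85 CPM against 4.82 and 6.64 CPM) and Kcnh5 at day 3 (0.0842 and 0.126 CPM against 0.365 and 0.523 CPM) were higher as well, with adjusted p of 0.0492 and 0.0391. Both calls were lost without any one replicate, and that of Kcnh5 also with only the 4 libraries compared.

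**Figure D4:**
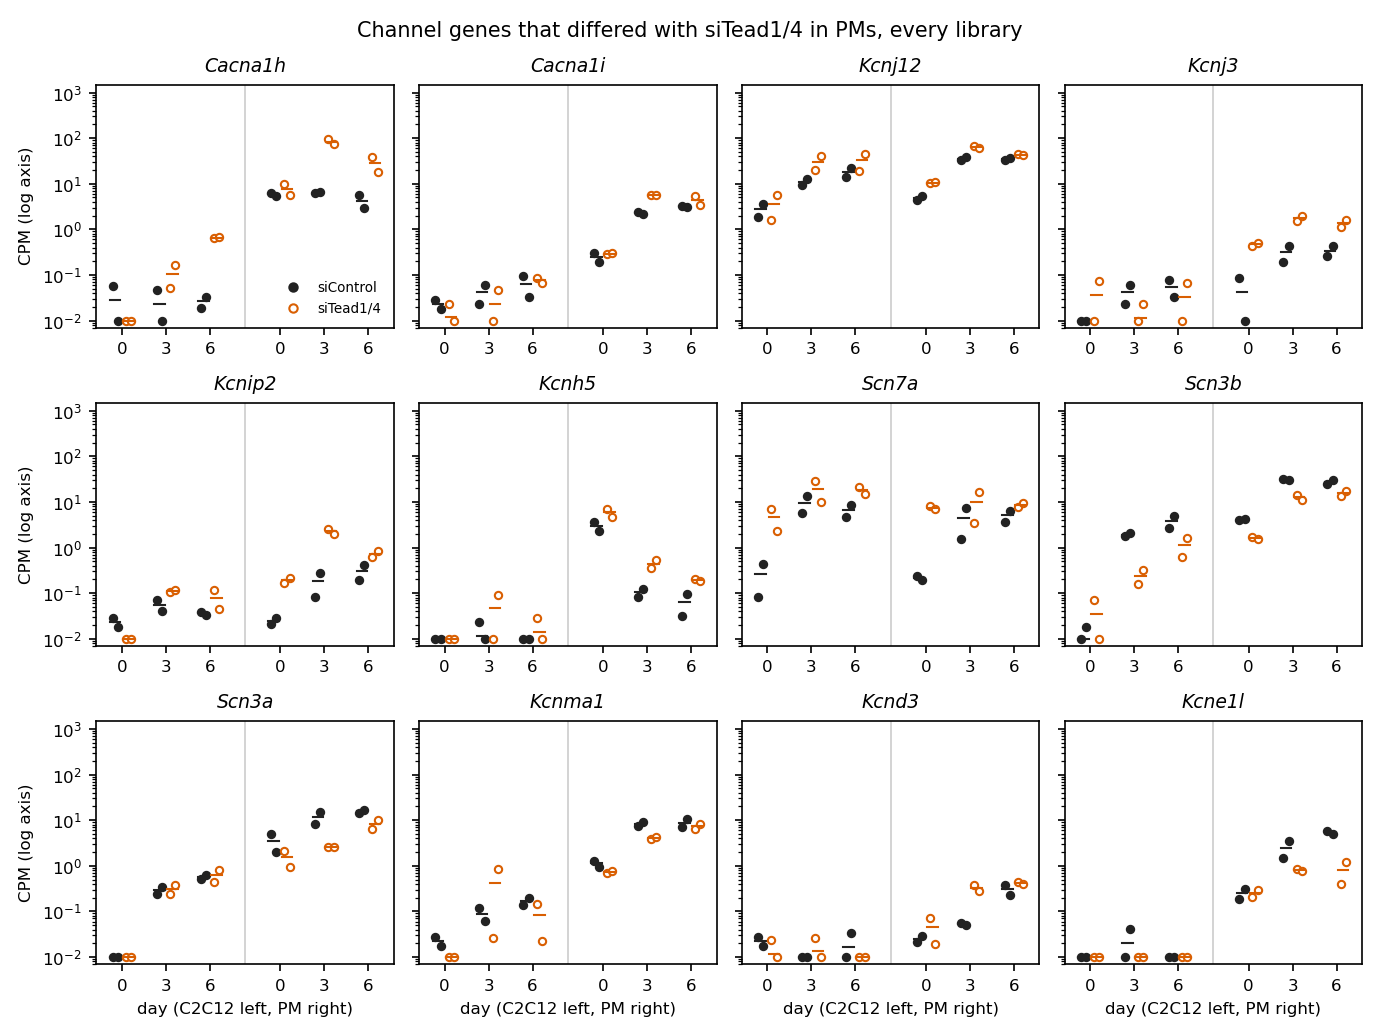
Level of 12 of the channel genes called with siTead1/4 in PMs, in CPM (vertical log axis) by day, for C2C12 cells (left of each panel) and PMs (right). Filled points are siControl and open points siTead1/4 libraries, dashes are the mean of 2, and values under 0.01 CPM are drawn at 0.01; Cacna1h in PMs separates to 74.2 and 94.2 CPM at day 3.

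Most channel genes that rose with differentiation were not called with siTead1/4, in comparisons that share the siControl libraries with those of differentiation. Few tested genes of any kind were called. In a given direction and day the share was at most 2.10% in PMs and 1.08% in C2C12 cells. The lack of a call therefore does not set these members apart. Of the 24 tested members of the muscle list in PMs, the calls included Kcnj12, higher at day 0, Cacna1h, higher at days 3 and 6, and Kcnma1, lower at day 3. In C2C12 cells none of the 18 was called at any day in the edgeR fit with the filter on low counts. At day 3 their median log2 FC was -0.297, with 7 of 18 positive. Some fell far without a call in that fit. Kcnn3 had 1008 and 1402 counts in siControl and 207 and 130 counts in siTead1/4 libraries, and Kcnk13 had 211 and 174 against 9 and 52 counts. Over all members, DESeq2 called 5 lower and 0 higher in that comparison, and edgeR with no filter on low counts called 7 lower and 4 higher. Scn4a in C2C12 cells at day 3 had 124 and 168 CPM in siControl and 59.9 and 105 CPM in siTead1/4 libraries, and Cacnb1 261 and 266 CPM against 113 and 203 CPM, neither called (adjusted p = 0.203 and 0.293). In PMs the same genes had 240 and 213 CPM against 304 and 231 CPM, and 359 and 345 CPM against 327 and 338 CPM. Of the channel partners only Rrad, an inhibitor of the L-type channel, was called with siTead1/4, lower in C2C12 cells at day 3 (log2 FC -1.75, SE 0.33, adjusted p = 0.0348).

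Whether the siTead1/4 effect differed between the cell types was tested over all 24 libraries. edgeR called no member at day 0, 3 or 6, with 0.00591%, 1.25% and 0.0354% of all tested genes called in either direction. The unadjusted p was under 0.05 for 7, 18 and 6 of 96 members, and DESeq2 called 0, 3 and 0. The 3 at day 3 were Cacna1b, called with siTead1/4 only in C2C12 cells (difference 1.73, SE 0.45, DESeq2 adjusted p = 0.00697), Kcnn3 (1.85, SE 0.58, DESeq2 adjusted p = 0.0382) and Kcnma1 (-3.31, SE 1.04, DESeq2 adjusted p = 0.0423). For Kcnma1 the C2C12 libraries at day 3 had 0.118 and 0.0607 CPM in siControl and 0.0265 and 0.834 CPM with siTead1/4, so 1 library sets its value there. With no filter on low counts edgeR also called these 3, among 9, and with a replicate block it called Scn4a (1.09, SE 0.25, adjusted p = 0.0384). Cacna1h had at most 0.162 CPM in C2C12 libraries at day 3, and no difference is given for it. Others of the 9 were Kcnk13 (2.286, SE 0.475, edgeR adjusted p = 0.000606), Scn3a (-2.213, SE 0.612, adjusted p = 0.0205) and Scn3b (1.693, SE 0.494, adjusted p = 0.0317). Whether the response differed between the cell types thus depended on the test for several members, among them Cacna1b, Kcnn3, Kcnma1, Kcnk13, Scn3a, Scn3b and Scn4a.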

How the data were processed

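Polyadenylated RNA of 24 libraries (12 groups, 2 replicates each) was sequenced with a kit that does not keep strand. The authors mapped reads to mm9 and deposited raw counts per gene, and the submitters' processing notes name TopHat2 2.0.10, Bowtie2 2.1.0 and HTSeq 0.6.1. The Ensembl release is not given in the sources used here. The 36 columns of 12 libraries not listed among the samples were not used. Counts were fitted in R 4.3.3 with edgeR 4.0.16 (filterByExpr, TMM, glmQLFit and glmQLFTest), 12 libraries per cell type, or 24 for differences between cell types, with 1 mean per group and Benjamini-Hochberg adjustment over all tested genes. Where a group was at or under 3 counts in each library, folds are bounds against 3 counts. The SE given with an edgeR effect is its absolute log2 value over the square root of the F statistic of its test. It was thus derived from the test and not estimated apart from it. The code was tested on simulated data with 200 changed genes. Alternatives were DESeq2 1.42.0, its size factors, no filter, only the libraries compared, a replicate block and leaving out each replicate of an siRNA at every day at once. The members and gene lists were chosen with earlier results of these data known. Named were members called with siTead1/4 or between cell types, the muscle list, up to 8 largest rises and falls per differentiation comparison and the 10 highest members per kilobase; some of these are not reported here.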

Additional observations from a re-analysis of the deposited data

Results flagged for a closer look

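Of the 15 channel genes whose change between day 0 and day 3 in siControl cells differed between PMs and C2C12 cells by the edgeR test of the difference itself, 10 are given here, and that test is what singles them out. As PM minus C2C12 on the log2 scale the differences were -6.98 for Scn4a, -3.46 for Kcnn3, -2.89 for Cacnb1, -2.09 for Kcnf1, -1.84 for Cacna1b and 3.65 for Kcnk12. Kcnk13, Kcne4, Cacng6 and Scn3b were at or under 3 counts in both C2C12 libraries of day 0, and against that floor their differences were at most -5.34, -3.48, -3.30 and -1.96. Day 0 levels of Scn4a, Kcnn3, Cacnb1, Kcnf1, Kcnk13, Kcne4, Cacng6 and Scn3b were lower in C2C12 cells. Those of Cacna1b overlapped between the cell types, and those of Kcnk12 were higher in C2C12 cells. Of the 11 myogenic markers, 8 were called by this test, all with the more negative effect in PMs. The markers summed to at most 1122 CPM in siControl C2C12 cells and at least 10840 CPM in siControl PMs at day 0. The part of the day 0 levels in these differences was not tested. Strain, culture and origin also differ between the cell types and cannot be told apart from them.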

How the results depend on the processing

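None of the 20 named calls with siTead1/4, 120 on differentiation and 15 between cell types turned direction under the alternatives that gave them a value, which DESeq2 did for 19, 119 and 15 and the fit of only the libraries compared for 20, 114 and 15. Counts of channel genes called with siTead1/4 moved most. In C2C12 cells they were 0, 1 and 0 at days 0, 3 and 6, and became 3, 5 and 2 with DESeq2 and 5, 11 and 7 with no filter on low counts, while day 3 became 0 when only the 4 libraries compared were fitted. In PMs the 7 at day 0 became 11 with no filter and 11 with only the libraries compared, and the 2 at day 6 became 5 with DESeq2, 5 with no filter and 0 with only the libraries compared. The 9 called between days 3 and 6 in PMs became 1 with only the libraries compared. The difference of siTead1/4 effects at day 3, with 0 called, gave 3 with DESeq2 and 9 with no filter.

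Replicate numbers are shared between groups, but the labels do not say what they mark. Same-numbered libraries deviated together (r over 0.1) in 7 of 15 group pairs in C2C12 cells (-0.37 to 0.637) and in 13 of 15 in PMs (0.078 to 0.7). With a replicate block, the counts became 2 in C2C12 cells at day 3, 12 and 5 in PMs at days 0 and 6, 14 between days 3 and 6 in PMs, and 1 for the difference at day 3.

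Leaving out a replicate gave 0 to 2, 0 to 5 and 0 calls with siTead1/4 in C2C12 cells at days 0, 3 and 6, and 1 to 5, 3 to 5 and 0 to 1 in PMs. It gave 17 to 20 and 21 to 22 at days 3 and 6 against day 0 in C2C12 cells, 42 to 49 and 46 to 50 in PMs, 0 for day 6 against day 3 in either, 5 to 8 for the difference of differentiation effects and 0, 0 to 2 and 0 for those of siTead1/4. Each such fit left out 1 replicate of 1 siRNA at every day at once. Both arms of a differentiation comparison then held 1 library a group, and so did 1 arm of a comparison with siTead1/4. The spread came from the groups of the other siRNA, and each lone library was assumed to vary like them. A call lost in this way can reflect the smaller number of libraries as well as the library left out. Of the named calls, 3 of 20 with siTead1/4, 79 of 120 on differentiation and 3 of 15 between cell types held under every alternative. With 2 libraries a group, members near the floor of 3 counts were decided by few reads.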
